A study of Mus musculus with 6 samples.

Results

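CpG island shores are the flanks of CpG islands (CGIs), and were taken here as the CpGs that lie 1 to 2000 bp outside a CGI and inside no CGI on the mouse autosomes. CGIs were called on the GRCm38 (mm10) genome by the usual rule of more than 200 bp, a GC content over 50% and an observed to expected CpG ratio over 0.6, which gave 15607 autosomal CGIs and 31214 possible flanks. Of the 249602 shore CpGs listed in any library, 52707 had at least 10 and under 1000 reads in all 6 libraries, which is 21.1% of the listed shore CpGs and 7.27% of the 725061 autosomal CpGs that met the same limits. A shore, meaning 1 flank of 1 CGI, was summarised when it held 3 or more such CpGs, and 7937 shores of 6874 CGIs did so. They held a median of 5 CpGs and at most 31, and another 6025 shores held 1 or 2 CpGs and entered only the means over CpGs.

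DNA methylation was measured by reduced representation bisulfite sequencing (RRBS), in which DNA is cut at CCGG by the enzyme MspI and unmethylated cytosines are converted, so that the share of reads that still show a C gives the methylation level of a CpG. CD8+ T cells came from LNs of C57BL/6N mice of 3 genotypes with 2 libraries each: wild type (WT), hSTAT5B +/T and hSTAT5B N642H +/T. Both transgenes put human STAT5B, unmutated or with the N642H change, under the Vav1 promoter, which is active in hematopoietic cells, and each came from a single transgenic line, so that line and transgene cannot be told apart. The mice were young adults of the same age, the WT mice were bought in, and the hSTAT5B N642H mice had overt T cell disease. The labels number the replicates and do not say whether they were separate animals, so the p-values measure only the spread between these libraries.

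Most CGIs lie at gene starts and are kept free of methylation, while the bulk of the genome between genes is heavily methylated. The shore is the stretch in which the first state gives way to the second. Shores hold fewer CpGs than the island itself, and they are known as places where methylation differs between tissues, between cell states and between tumors and their tissue of origin. STAT5B is a transcription factor that passes cytokine signals such as those of IL-2 and IL-7 to the nucleus of T cells.

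The libraries listed 2597893 to 3445555 CpGs covered by 43291086 to 67007186 reads, and the median depth of the shore CpGs that were used lay between 26 and 47 reads per library. WT replicate 1 had the lowest depth there and stood apart at the CD8 marker gene Cd8a, where CpGs within 10 kb were methylated at 57.6% against 15.6% to 29.8% in the other 5 libraries. Near Cd8b1 the level was 44.2% and 45.6% in WT, 23.9% and 29.4% in hSTAT5B, and 13.9% and 14.3% in hSTAT5B N642H. The mean over all 9 CD8 T cell marker genes was 52.0% in WT replicate 2 and higher in WT replicate 1, 50.7% and 51.2% in hSTAT5B, and 47.7% and 47.9% in hSTAT5B N642H. Not every marker had the direction of this mean, since Cd247, at 46.5% and 48.4%, was higher in hSTAT5B N642H than in the other 4 libraries, at 39.8% to 42.3%, and Cd3g lay between 23.9% and 25.6% in all 6. The mean over 6 B cell marker genes lay between 53.1% and 57.4% and the mean over 7 myeloid marker genes between 79.1% and 80.3% in all 6 libraries. The share of CD8+ cells in the enriched samples is not given in the sources used here, and its part in the differences between genotypes was not tested. Values without WT replicate 1 are given where they matter.

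The sequences on which the results below turn are shown here from the plus strand of GRCm38 (RefSeq), in lower case with the CpGs that were measured in all 6 libraries in capitals. Cdkn2aip is shown for the step from an unmethylated to a methylated shore, at chr8:47714607-47714653 (55 to 100 bp from the CGI) and chr8:47715599-47715727 (1047 to 1174 bp). Ppp3cc (chr14:70287756-70287787), Zfp503 (chr14:21990782-21990921), Hopx (chr5:77092980-77093012) and Nfix (chr8:84785254-84785348) are shown as shores that were lower in hSTAT5B N642H, and Itpka (chr2:119744721-119744782) as a shore that was higher. The Camk2b intron is shown at chr11:6011369-6011403, whose sequence occurs in many copies, and at chr11:6006584-6006619, whose 36 bases occur once as a whole but hold shorter stretches that are copied.
Cdkn2aip near: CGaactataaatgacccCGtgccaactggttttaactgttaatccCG
Cdkn2aip outer: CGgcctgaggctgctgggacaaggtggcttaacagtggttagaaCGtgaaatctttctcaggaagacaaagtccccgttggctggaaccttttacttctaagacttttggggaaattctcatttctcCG
Ppp3cc: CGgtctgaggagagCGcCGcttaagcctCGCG
Zfp503: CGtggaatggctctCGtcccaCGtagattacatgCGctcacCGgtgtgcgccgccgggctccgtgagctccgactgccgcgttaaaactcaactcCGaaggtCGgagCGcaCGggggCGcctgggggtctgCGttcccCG
Hopx: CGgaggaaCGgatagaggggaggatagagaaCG
Nfix: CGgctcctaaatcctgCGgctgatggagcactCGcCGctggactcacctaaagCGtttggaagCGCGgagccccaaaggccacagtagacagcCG
Itpka: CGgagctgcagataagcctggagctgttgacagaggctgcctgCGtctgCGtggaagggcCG
Camk2b: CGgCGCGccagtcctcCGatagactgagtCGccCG
Camk2b other fragment: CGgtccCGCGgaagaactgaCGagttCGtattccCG
The CpGs of these stretches are dense in the shores of Zfp503, Ppp3cc and Camk2b and sparse in the outer stretch of Cdkn2aip.

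The methylation level of shores rose steeply and smoothly with distance from the island, and it did so alike in the 6 libraries. In the first 100 bp it lay between 12.4% and 13.0%, and at 1901 to 2000 bp between 76.2% and 77.0%. The mean level passed 50% at 794 to 812 bp from the CGI. Averaged over all shore CpGs it was 36.5% and 36.9% in WT, 37.0% and 37.0% in hSTAT5B, and 37.0% and 37.1% in hSTAT5B N642H. The islands themselves stood at 7.42% to 7.80%, the next 2000 bp outward at 77.0% to 77.4%, and CpGs more than 4000 bp from any island at 86.4% to 87.6%. Shores thus covered nearly the whole range between the island and the bulk of the genome.

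**Figure D1:**
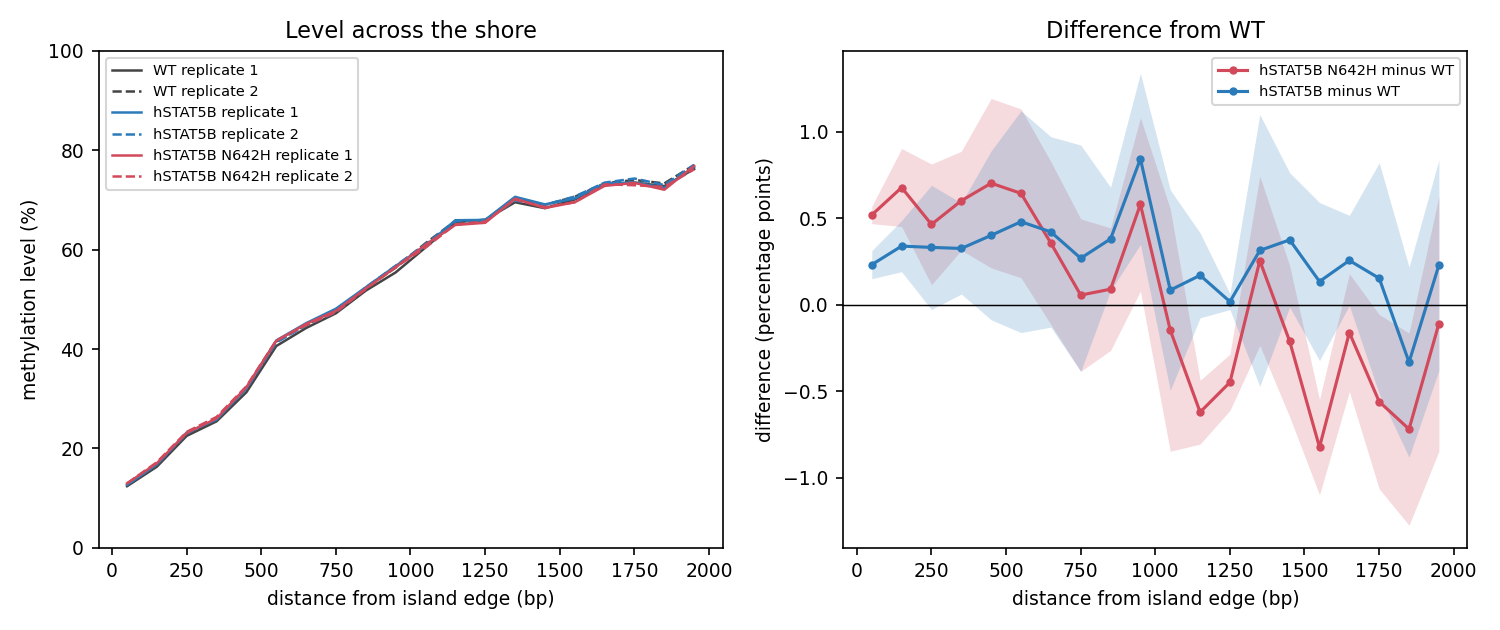
Left, mean methylation level (%) of shore CpGs in bins of 100 bp by distance from the island edge (bp), with a line per library. Right, difference of the genotype means from WT in percentage points for the same bins, with shading from the lowest to the highest difference between single libraries. The 6 lines lie on each other on the left, and on the right hSTAT5B N642H is above WT in all 10 inner bins and below it in 9 of the 10 outer bins. hSTAT5B is likewise above WT in all 10 inner bins, and is below it in 1 of the 10 outer bins. These are signs of the means. Both hSTAT5B N642H libraries lie above both WT libraries in 7 inner bins and below both in 5 outer bins. Both hSTAT5B libraries lie above both WT libraries in 5 inner bins.

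This mean is made of CpGs that were mostly at either end of the scale. Between 53.2% and 54.8% of the shore CpGs were under 20% methylated and 26.7% to 27.5% were at 80% or more, with the rest in between. Close to the island, at 1 to 500 bp, 75.0% of the CpGs were under 20%, whereas more than 1500 bp away 65.8% were at 80% or more (means over libraries). Over whole shores the middle class was wider, with 47.7% to 48.8% of the 7937 shores under 20%, 29.3% to 31.1% between 20% and 80%, and 21.1% to 21.8% at 80% or more.

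Among the 337 shores with at least 3 CpGs both at 1 to 500 bp and more than 1000 bp from the CGI, the outer part was a median of 35.0 percentage points above the inner part. It was higher by 20 points or more in 189 shores and by 50 points or more in 142, it lay within 10 points in 109, and it was lower by 20 points or more in 9. The steepest step was upstream of Cdkn2aip, a gene for a protein that binds the product of the Cdkn2a locus. Its 3 inner CpGs were at 1.43% and 0.292% in WT, 1.22% and 0% in hSTAT5B, and 0% and 3.21% in hSTAT5B N642H, and its 3 outer CpGs were at 98.7% or more in every library. No library departed from this step, the sequence of which is shown above. The next steepest were the shore of Cxxc1, which encodes a protein that binds unmethylated CpGs, with a step of 97.4 points, and then that of Tonsl, a replication repair factor.
The steepest fall ran the other way, by 92.8 points at a shore over Cirbp and 1600002K03Rik, and the level at the shore of Sirt4 was lower by 76.2 points in its outer part. The CGI itself was methylated at 96.9% for Sirt4, so there the high level was that of the island and its inner flank.

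The level of a shore CpG also went with its sequence surroundings. With 0 or 1 other CpG within 100 bp the mean level over the 6 libraries was 69.9%, with 2 to 4 it was 54.6%, with 5 to 9 it was 31.2%, and with 10 or more it was 19.0%. CpGs in soft-masked repeats, which made up 9.63% of shore CpGs, were at 50.1% against 35.5% outside repeats. CpGs inside an MspI site stood at 41.5% and the others at 32.3%. These features vary together with distance, since the number of other CpGs within 100 bp fell from 9.79 in the first 100 bp to 4.67 in the last, so the values are given as a description.

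Shores differed by the kind of island they flank. Islands under 20% methylated in hSTAT5B had 5445 shores with a mean level of 29.7%, those between 20% and 80% had 222 shores at 63.9%, and those at 80% or more had 356 shores at 90.3%. The remaining 1914 shores belonged to islands without enough CpGs of their own and stood at 46.1%. The pair of shores on opposite sides of an island were only loosely alike. Over the 1063 islands with both shores measured, the median difference between the sides was 17.3 points, and in 228 islands (21.4%) it was 50 points or more. Both sides were under 20% in 328 islands and at 80% or more in 95, and in 111 islands 1 side was under 20% and the other at 80% or more. Pearson's r of the sides was 0.370 over these islands, all of which come from the same 6 libraries.

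As a mean over CpGs, the side of the island that runs into the gene was less methylated than the side upstream of the start. For islands with a protein-coding start on 1 strand only, the gene side held 16753 CpGs and the upstream side 13234. The gene side stood at 29.5% and 29.8% in WT, 30.0% and 30.0% in hSTAT5B, and 30.0% and 30.1% in hSTAT5B N642H. The upstream side stood at 32.9% and 33.3%, 33.2% and 33.3%, and 33.3% and 33.4% in the same order. The gene side was lower in 6 of 6 libraries, by 3.33 ± 0.114 points (SD, n = 6, exact sign-flip permutation test, p = 0.03125, the smallest that 6 libraries can give). All 6 libraries measured the same CpGs, so the p-value covers the spread between libraries and not that between islands. By distance, the gap was 1.42 points at 1 to 500 bp, 7.19 points from there to 1000 bp, 1.26 points from there to 1500 bp and 0.337 points from there to 2000 bp, lower on the gene side in 6 of 6 libraries each time. The size of the gap depended on which CpGs were counted. Soft-masked sequence made up 7.49% of the gene-side CpGs and 12.3% of the upstream CpGs, and without it the difference was -1.55 points. With the CpGs inside MspI sites left out it was -0.896 points (exact sign-flip permutation test, p = 0.03125 in both cases). In the 583 islands with both sides measured, the gene side was lower in 298 and higher in 285, with a mean difference of -1.40 points and a median of -0.262 points. The gap therefore belongs to the mean over many shores, and single islands went either way about equally often.

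**Figure D2:**
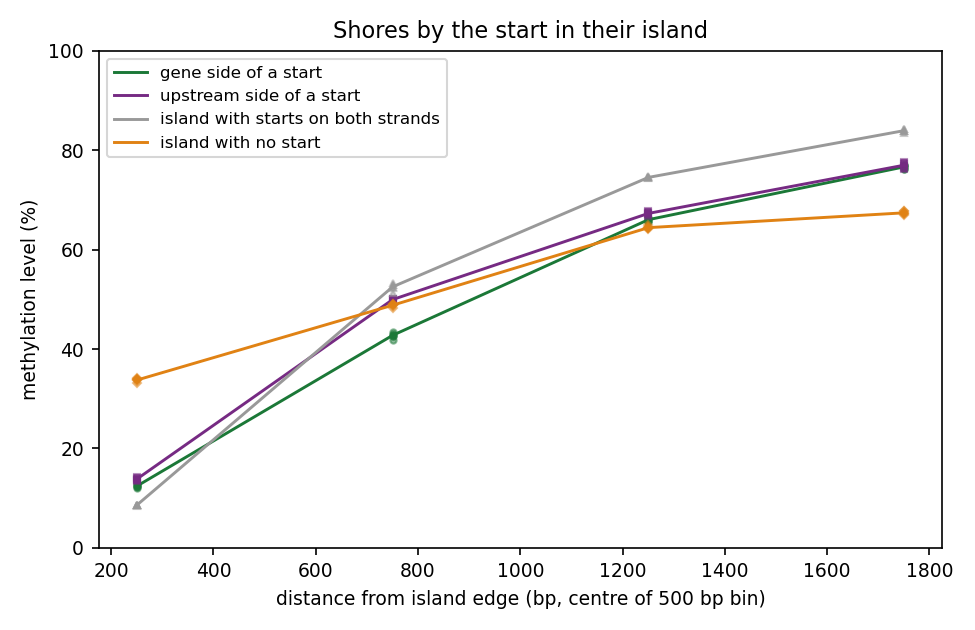
Mean methylation level (%) of shore CpGs in bins of 500 bp by distance from the island edge (bp), for shores on the gene side of a start, on the upstream side, of islands with starts on both strands and of islands with no start. Points are the 6 libraries and lines their mean, and the gene side lies furthest under the upstream side in the second bin, by 7.19 points.

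Islands with starts on both strands had 368 shores, whose mean level of 30.1% over the 6 libraries was near that of the gene side. Their CpGs were at 8.62% at 1 to 500 bp and at 83.9% more than 1500 bp away, the widest step of the 4 kinds. Islands with no protein-coding start had 2972 shores at 45.9%, and here the step was the smallest of the 4 kinds, from 33.8% at 1 to 500 bp to 67.4% more than 1500 bp away. No test was run between these 2 kinds and the others.

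Between genotypes the mean level of shores differed by less than 1 point. It was 0.321 points higher in hSTAT5B N642H than in WT, 0.302 points higher in hSTAT5B than in WT, and 0.019 points higher in hSTAT5B N642H than in hSTAT5B (exact permutation tests over libraries, p = 0.333, 0.333 and 0.667). With 2 libraries against 2 these tests cannot go below 0.333. Both differences from WT rest in large part on WT replicate 1: without it they were 0.0942 and 0.0752 points, and without WT replicate 2 they were 0.548 and 0.529 points. They also moved with the weighting of the CpGs, to 0.739 and 0.953 points with reads pooled over CpGs, and to 0.162 and 0.278 points with CpGs inside MspI sites left out (exact permutation tests, p = 1 and 0.333). The direction of the difference between the transgenic genotypes changed with the processing and cannot be given.

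On their means, CpGs far from islands were lower in both hSTAT5B N642H libraries than in the other 4, and shores were not. More than 4000 bp away the level was 87.1% and 87.6% in WT, 87.6% and 87.5% in hSTAT5B, and 86.4% and 86.6% in hSTAT5B N642H. The gap between shores and these CpGs was 50.6 points in both WT libraries, 50.5 points in both hSTAT5B libraries, and 49.4 and 49.6 points in the hSTAT5B N642H libraries. Shores minus far CpGs were thus 1.16 points higher in hSTAT5B N642H than in WT (exact permutation test, p = 0.333) and 1.10 points higher than in the other 4 libraries together (p = 0.0667, the smallest that 2 against 4 can give). Leaving out any library kept the difference from WT between 1.07 and 1.25 points. Between hSTAT5B and WT the same quantity differed by 0.110 points (exact permutation test, p = 0.333). Of the far CpGs 34.4% lie in sequence that occurs more than once in the genome, against 5.26% of shore CpGs, and with all such CpGs left out the difference between hSTAT5B N642H and WT was 1.05 points. Sorted by their level in hSTAT5B, shore and far CpGs of hSTAT5B N642H differed from WT in the same direction in each class. The differences were 1.21 and 1.17 points at 5% to 20%, and -1.13 and -1.48 points at 80% to 95%. At 95% to 100% stood 282627 of the 490663 far CpGs and 9057 of the 52707 shore CpGs. How far the 1.16 points go with this mix of levels was not tested.

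As means over CpGs, the inner and outer parts of the shore in hSTAT5B N642H differed from WT in opposite directions. At 1 to 500 bp the level was 19.5% and 19.8% in WT, 19.9% and 19.9% in hSTAT5B, and 20.1% and 20.3% in hSTAT5B N642H. In the outermost 500 bp it was 73.1% and 73.6%, 73.2% and 73.6%, and 72.9% and 72.8%. Both hSTAT5B N642H libraries were the highest of the 6 near the island and the lowest of the 6 at the outer end. The outer difference was not common to all CpGs of the outermost 500 bp. Those with 10 or more other CpGs within 100 bp were 1.28 points higher in hSTAT5B N642H than in WT. In the sparser classes the difference was -0.472 points (5 to 9 others), -0.788 points (2 to 4) and -1.04 points (0 or 1). The inner difference from WT was shared in part by hSTAT5B. In bins of 100 bp the hSTAT5B mean was above WT in all 10 inner bins, without overlap of libraries in 5. The hSTAT5B N642H mean was above hSTAT5B in 6 of the 10, without overlap in 4, and it was below hSTAT5B without overlap in 2. Against WT replicate 2 alone the hSTAT5B N642H mean was lower at 701 to 800 bp, at 47.6% against 47.8%. It was also lower at 801 to 900 bp, at 52.1% against 52.3%. The step from the inner to the outer part was 53.6 and 53.8 points in WT, 53.3 and 53.7 points in hSTAT5B, and 52.8 and 52.5 points in hSTAT5B N642H. It was 1.06 points smaller in hSTAT5B N642H than in WT, with a signed difference of -1.06 points (exact permutation test, p = 0.333) and of -0.949 points against the other 4 libraries (p = 0.0667). Leaving out any library kept the difference from WT between -1.18 and -0.946 points.

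The difference of hSTAT5B N642H from WT also turned sign with the level of the CpG, when CpGs were sorted by the hSTAT5B libraries, which are in neither group. CpGs at 5% to 20% in hSTAT5B were 1.21 points higher in hSTAT5B N642H than in WT, with single pairs of libraries between 1.17 and 1.26 points. At 20% to 50% the difference was 2.17 points (1.73 to 2.60). It was -0.667 points at 50% to 80% (-1.93 to 0.598), -1.13 points at 80% to 95% (-1.95 to -0.315) and -0.591 points at 95% to 100% (-0.886 to -0.295). Apart from the class at 50% to 80%, every pair of libraries gave the direction of the mean in these classes and in the lowest, at 0% to 5%, where the difference was 0.340 points (0.267 to 0.414). This turn of sign was not particular to shores. At 5% to 20% the difference was 0.670 points in islands and 1.17 points more than 4000 bp away. At 80% to 95% it was -1.93 and -1.48 points in the same order.

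Single shores differed between libraries of the same genotype nearly as often as between genotypes. Levels of shores correlated between libraries at r = 0.983 to 0.989 across shores, and 2088, 2189 and 1893 of the 7937 shores were 5 points or more apart between the 2 libraries of WT, hSTAT5B and hSTAT5B N642H. Pairs of 1 hSTAT5B N642H and 1 WT library were that far apart at 2123 to 2362 shores, which is more than within WT or within hSTAT5B N642H in all 4 pairs. Pairs of hSTAT5B and WT libraries had 1946 to 2303 such shores, and pairs of hSTAT5B N642H and hSTAT5B libraries 2125 to 2362. Means of 2 libraries vary less than single libraries, so the counts over means that follow are lower. Genotype means were 5 points or more apart at 1641 shores between hSTAT5B N642H and WT, where 947 (11.9% of shores) were higher and 694 (8.74%) lower in hSTAT5B N642H. Over all 87296 regions of the genome that were tested, islands, shores and the rest together, 6.45% were higher and 9.26% lower by this much. Between hSTAT5B and WT 1352 shores were that far apart, 779 (9.81%) higher and 573 (7.22%) lower in hSTAT5B, against 6.69% and 5.71% of all regions. Between hSTAT5B N642H and hSTAT5B it was 1564 shores, 785 (9.89%) higher and 779 (9.81%) lower, against 5.54% and 9.62% of all regions. Without WT replicate 1 the share of higher among the shores 5 points apart between hSTAT5B N642H and WT went from 57.7% to 52.4%.

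**Figure D3:**
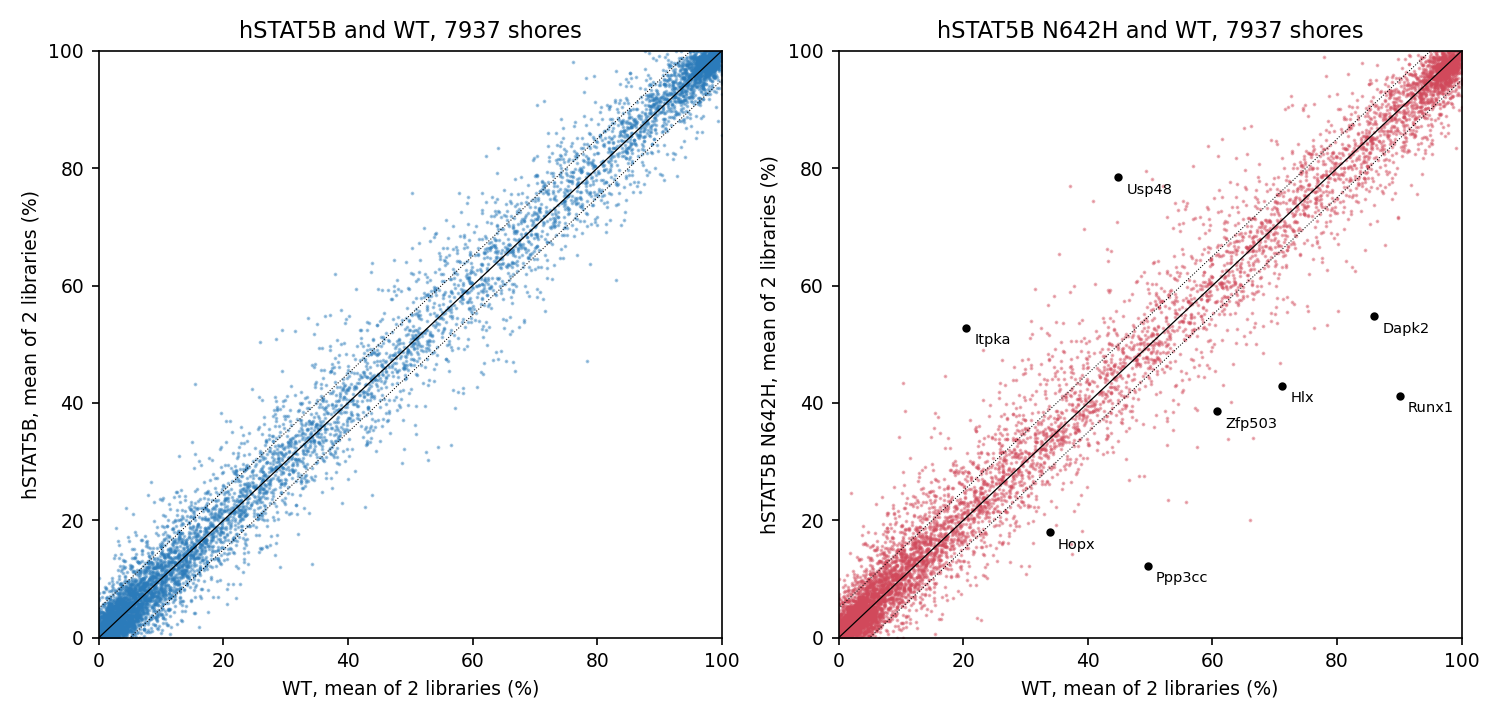
Mean methylation level (%) of each of the 7937 shores in hSTAT5B (left) and hSTAT5B N642H (right) against WT, each the mean of 2 libraries. The solid line marks equal levels and the dotted lines 5 percentage points either way, and 8 shores named in the text are marked on the right, among them Ppp3cc at 49.6% in WT and 12.3% in hSTAT5B N642H.

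Both hSTAT5B N642H libraries lay above all other 4 libraries at 749 shores (9.44%) and below all of them at 680 (8.57%). Among all regions the shares were 5.5% above and 12.3% below. Both hSTAT5B libraries lay above both WT libraries at 1407 shores (17.7%) and below both at 1218 (15.3%), near the 17.8% and 15.2% of all regions.

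No shore passed the test that was set as the main one. Log2 ratios of methylated to unmethylated reads were fitted with limma over all 87296 regions, and after Benjamini-Hochberg adjustment none of the 7937 shores was under 0.05 in any of the 3 comparisons, like 0.0% of all regions. The smallest adjusted p among shores was 0.628 for hSTAT5B N642H against WT, 0.743 for hSTAT5B against WT and 0.622 for hSTAT5B N642H against hSTAT5B, and 535, 425 and 504 shores had an unadjusted p under 0.05. A quasi-binomial model of the read counts called 46 shores between hSTAT5B N642H and WT, which is 0.580% of shores against 0.415% of all regions. It called 0 shores between hSTAT5B and WT, against 0.0% of all regions, and 10 shores between hSTAT5B N642H and hSTAT5B, against 0.149% of all regions. Of the 46 shores 30 were higher and 16 lower in hSTAT5B N642H, and both hSTAT5B N642H libraries lay outside the other 4 at 43 of them. Among all shores 9.44% lay above the other 4 and 8.57% below, and among all regions 5.5% and 12.3%. The calls were made on the gap from WT in these same libraries, so the count of 43 largely follows from them. The model sums the reads of a shore, so uneven depth over its CpGs can enter a call. The shore at 1600002K03Rik (quasi-binomial model, adjusted p = 0.0395) differed by 0.063 points as a mean over CpGs and by -19.6 points with pooled reads. The called shore nearest to the start of Ezh2 differed by -2.19 points, and 39 of the 46 by 10 points or more. Fisher's exact test with the reads of a genotype pooled, which takes no account of the spread between them, passed 1110, 430 and 1002 shores, which is 14.0%, 5.42% and 12.6% of shores against 10.5%, 4.0% and 10.1% of all regions.

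The shores of 5 or more CpGs with the largest gap between hSTAT5B N642H and the other 4 libraries were chosen by that gap, so their values are a description. The largest gap among shores of this size was a fall in an intron of Ppp3cc, which encodes a catalytic subunit of calcineurin, the phosphatase that activates NFAT in T cells. Its 5 CpGs, 1185 to 1215 bp from the CGI on the gene side, were methylated at 50.0% and 49.2% in WT, 54.8% and 64.5% in hSTAT5B, and 16.5% and 8.11% in hSTAT5B N642H. The last pair of libraries lay far under the other 4. The log2 ratio of methylated to unmethylated reads was 2.82 lower than in WT, with a signed value of -2.82 ± 0.50 (SE, limma, adjusted p = 0.628), and the quasi-binomial model gave an adjusted p of 0.00736. All 5 CpGs of the sequence shown above lie in a stretch of 32 bases that occurs once in the autosomal genome.

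Hlx, a homeobox transcription factor expressed in T cells, followed with 7 CpGs in an intron and a coding exon, 472 to 804 bp from a CGI at 2.39%. They stood at 74.2% and 68.2% in WT, 73.7% and 79.3% in hSTAT5B, and 49.6% and 36.2% in hSTAT5B N642H (quasi-binomial model, adjusted p = 0.0471). Each of the 7 CpGs had a lower mean in hSTAT5B N642H than in either other genotype. An intergenic shore nearest to the start of Tm6sf1, which encodes a membrane protein, had 55.9% and 69.2% in WT, 54.7% and 72.7% in hSTAT5B, and 36.8% and 31.1% in hSTAT5B N642H (quasi-binomial model, adjusted p = 0.0265). The shore upstream of Zfp503, a zinc finger protein that represses transcription, held 14 CpGs, and its levels were 57.3% and 64.0% in WT, 57.1% and 59.1% in hSTAT5B, and 37.0% and 40.2% in hSTAT5B N642H (quasi-binomial model, adjusted p = 0.00339). Here the fall sat in the 12 CpGs of the sequence shown above, 1171 to 1309 bp from the island, with means of 65.1% in WT, 61.7% in hSTAT5B and 39.8% in hSTAT5B N642H. The CpG nearest to the island, at 335 bp, was at 6.3% or less in all 3 genotype means.

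At 5 CpGs in coding exons of 9130023H24Rik, on a CGI shared with the start of Armc5, the level was 67.2% and 65.9% in WT, 44.3% and 49.5% in hSTAT5B, and 32.4% and 35.8% in hSTAT5B N642H. As means over the shore the 3 genotypes do not overlap there, and hSTAT5B lies between the others (quasi-binomial model for hSTAT5B N642H against WT, adjusted p = 0.057). The genotype means of the single CpGs were not all in this order. At 324 to 345 bp from the island, hSTAT5B means of 45.6% to 48.4% were near hSTAT5B N642H, at 43.5% to 48.7%, with WT at 75.0% to 90.0%. At 177 and 213 bp, hSTAT5B (53.5% and 38.8%) was near WT (51.1% and 41.2%), with hSTAT5B N642H at 15.7% and 13.8%. The WT libraries were far apart there, at 27.3% and 75.0% at 177 bp and 17.6% and 64.7% at 213 bp, on 11 to 17 reads. At 213 bp WT replicate 1 lay below hSTAT5B N642H replicate 1, at 20.6%. At 327 bp the WT libraries were at 100% and 50.0%, so the order of the genotypes at single CpGs is uncertain. The last of the 6 was in an intron of Gabbr2, a subunit of the receptor for the transmitter GABA, with 73.9% and 76.8% in WT, 72.9% and 77.5% in hSTAT5B, and 51.3% and 60.1% in hSTAT5B N642H. Its difference from the other 4 libraries was -19.6 points as a mean over CpGs and -12.1 points with pooled reads.

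**Figure D4:**
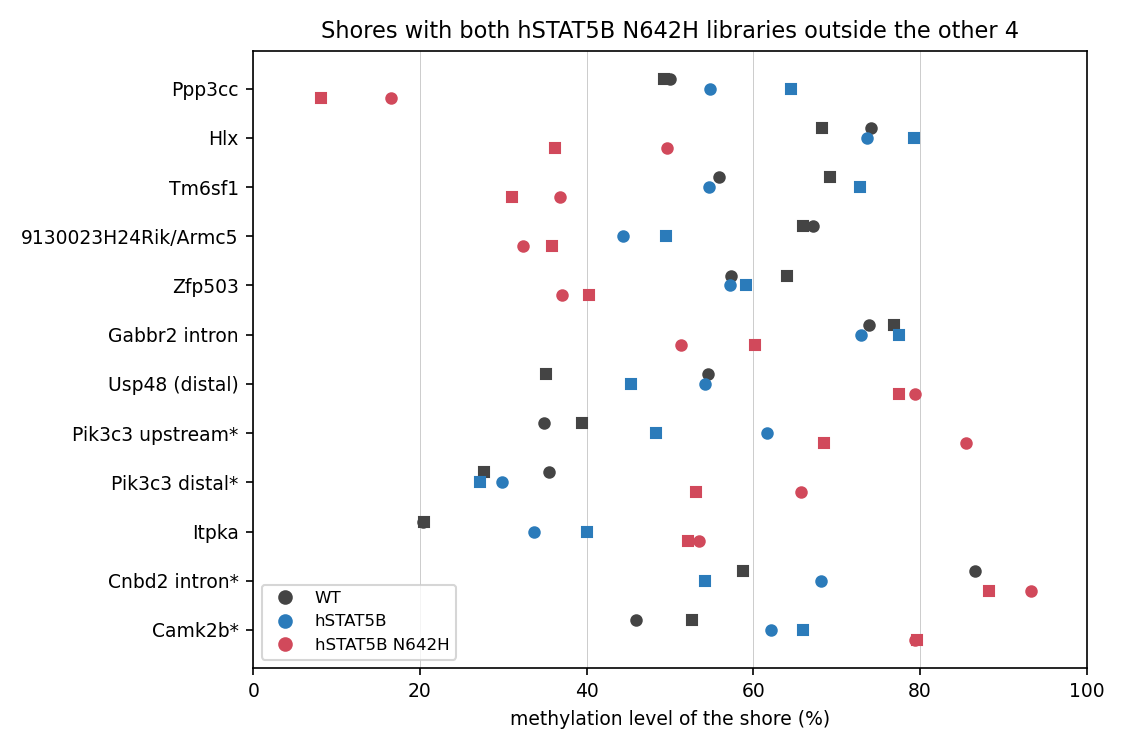
Methylation level (%) of the 6 shores with the largest fall and the 6 with the largest rise in hSTAT5B N642H among shores with 5 or more CpGs, with a circle for replicate 1 and a square for replicate 2 of each genotype. An asterisk marks shores with CpGs in sequence that occurs more than once, and in all 12 the hSTAT5B N642H libraries lie outside the other 4, which the choice of the shores fixed.

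Of the 6 largest rises, the shores near Usp48 and Itpka were the ones free of sequence that occurs more than once. The shore near Usp48, a deubiquitinating enzyme, is intergenic and more than 13 kb from that start, and had 54.6% and 35.1% in WT, 54.2% and 45.4% in hSTAT5B, and 79.4% and 77.5% in hSTAT5B N642H (quasi-binomial model, adjusted p = 0.00838). In an intron of Itpka, a kinase that phosphorylates inositol trisphosphate and so acts in calcium signaling, 5 CpGs stood at 20.3% and 20.5% in WT, 33.7% and 40.1% in hSTAT5B, and 53.5% and 52.2% in hSTAT5B N642H. The 3 genotypes are again in separate ranges with hSTAT5B between (quasi-binomial model for hSTAT5B N642H against WT, adjusted p = 0.0133).

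The other 4 of these rises were in repeated sequence, where reads of several loci can be counted at the same place. How the aligner treated such reads is not given in the sources used here, so these levels may be means over copies. In an intron of Camk2b, a subunit of a calcium-dependent kinase, 6 CpGs were at 46.0% and 52.6% in WT, 62.2% and 66.0% in hSTAT5B, and 79.4% and 79.6% in hSTAT5B N642H. The 35 bases that hold them have 74 exact matches on the autosomes. A second shore in the same intron, 5108 bp away, shares 235 identical bases with it, and its 6 matching CpGs stood at 62.5% and 48.7%, 65.3% and 75.9%, and 73.6% and 72.9% in the same order. That second shore also holds the 36 bases shown above as the other fragment. They match once as a whole, but for 3 of the 6 CpGs the surrounding 32 bases have 50 to 61 matches. The levels of the fragment were 24.4% and 21.4% in WT, 18.3% and 20.5% in hSTAT5B, and 62.8% and 62.0% in hSTAT5B N642H. The other 3 CpGs, whose 32 bases match once, stood at 28.6% and 20.9%, 18.1% and 17.2%, and 63.8% and 63.9% in the same order. Over its 18 CpGs the second shore had an adjusted p of 0.00439 for hSTAT5B N642H against WT and 0.0087 against hSTAT5B in the quasi-binomial model. An intron of Cnbd2 held 6 CpGs at 86.6% and 58.8% in WT, 68.1% and 54.2% in hSTAT5B, and 93.3% and 88.3% in hSTAT5B N642H, in a stretch of 52 bases with 30 exact matches. Both shores near Pik3c3, a lipid kinase of autophagy and endosome traffic, held copies at 7 of 7 and 16 of 18 CpGs, and the second of them was 29.4 points above the other 4 libraries as a mean over CpGs and 9.48 points above them with pooled reads. Its CpGs at 1459 and 1469 bp, whose 32 bases match once, had 11 to 52 reads. Their means were 0% and 1.72% in WT, 4.55% and 4.41% in hSTAT5B, and 42.2% and 44.1% in hSTAT5B N642H. Its deeply covered CpGs at 504 to 527 bp, with 53 to 63 matches, stood at 91.8% to 96.4% in all genotype means.

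At Zfp503 and Hlx many CpGs of the shore were lower together, and at other shores the difference was local. Hopx, which encodes a homeodomain protein without DNA binding that marks some effector T cells, was among the 12 shores with the smallest quasi-binomial adjusted p, a set that was chosen after the values were seen. Its gene-side shore had 36.4% and 31.3% in WT, 33.8% and 33.4% in hSTAT5B, and 17.5% and 18.5% in hSTAT5B N642H (adjusted p = 0.00439). The fall sat in the 3 CpGs shown above at 1745 to 1776 bp, with means of 92.1% in WT, 88.1% in hSTAT5B and 48.9% in hSTAT5B N642H. The other 6 CpGs of that shore were at 16.8% or less in all genotype means, so the shore level hides a fall by 43.2 points at 3 sites in an intron.

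Nfix, a transcription factor of the nuclear factor I family, had 20 intronic CpGs at 79.7% and 85.1% in WT, 80.3% and 83.6% in hSTAT5B, and 63.8% and 62.7% in hSTAT5B N642H (quasi-binomial model, adjusted p = 0.00242). Its 8 CpGs nearest to the island, shown above, had means of 81.4%, 81.0% and 56.0% in the 3 genotypes. Runx1, a transcription factor needed for T cell development, had the largest difference of the 12, at 3 CpGs in a UTR next to a CGI at 69.7%: 88.9% and 91.2% in WT, 74.2% and 83.9% in hSTAT5B, and 33.3% and 49.2% in hSTAT5B N642H (quasi-binomial model, adjusted p = 0.00332). The gene side of Dapk2, a kinase of cell death pathways, stood at 83.4% and 88.5%, 86.5% and 83.2%, and 56.7% and 52.9% in the same order (quasi-binomial model, adjusted p = 0.00838).
Among the rises, 4 intronic CpGs of Slc6a16, a transporter family member, went from 75.4% and 80.3% in WT through 90.7% and 95.1% in hSTAT5B to 99.5% and 98.5% in hSTAT5B N642H (quasi-binomial model, adjusted p = 0.00108). Tnfaip8, an apoptosis regulator, had 66.0% and 64.2%, 75.9% and 76.6%, and 88.4% and 85.3% (quasi-binomial model, adjusted p = 0.00108). The upstream shore of Cdo1, cysteine dioxygenase, had 16.2% and 14.5%, 22.4% and 18.6%, and 33.9% and 37.5% (quasi-binomial model, adjusted p = 0.00448). At Ssbp2 the levels were 72.2% and 77.5%, 84.8% and 80.1%, and 91.0% and 90.3% (quasi-binomial model, adjusted p = 0.00933). In these 4 rises hSTAT5B lay between WT and hSTAT5B N642H, as it did at the fall of Runx1. At the other 2 rises of the 12 shores, near Usp48 and at the second Camk2b shore, hSTAT5B overlapped WT, and so it did at the falls of Nfix, Dapk2, Hopx and Zfp503.

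**Figure D5:**
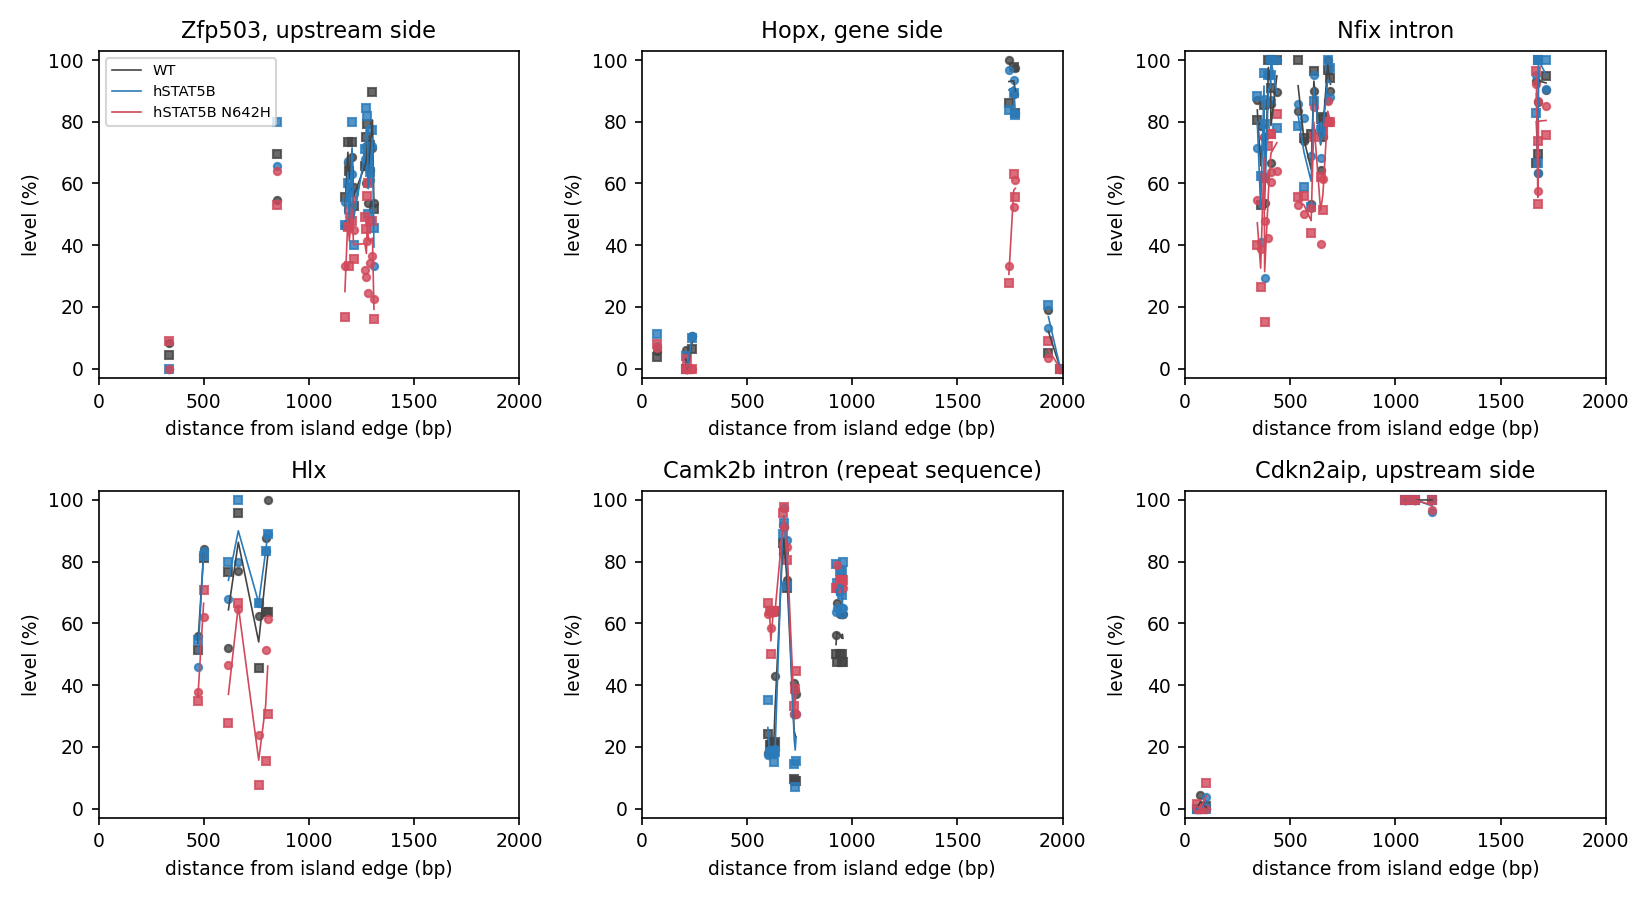
Methylation level (%) of single CpGs by distance from the island edge (bp) in 6 shores, with a circle for replicate 1 and a square for replicate 2 of each genotype and lines joining the genotype means of CpGs up to 100 bp apart. The hSTAT5B N642H points lie low over the outer CpGs of Zfp503 and over all 7 of Hlx, at 3 of the 9 CpGs of Hopx, and high at the innermost CpGs of the Camk2b intron, while the step at Cdkn2aip is the same in all 6 libraries.

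Between hSTAT5B and WT the largest gaps among shores with 5 or more CpGs were smaller, and neither limma nor the quasi-binomial model called a shore. The lower shores were at Zrsr1, an imprinted splicing factor gene, the 9130023H24Rik exons given above, Nsd1, a histone H3 methyltransferase, and Map1b, a microtubule protein. At Nsd1 the levels were 45.5% and 42.1% in WT, 25.0% and 23.7% in hSTAT5B, and 27.6% and 37.3% in hSTAT5B N642H. At Map1b they were 59.0% and 62.5%, 40.8% and 44.5%, and 54.6% and 64.2%, so hSTAT5B N642H overlapped WT there. The difference at Zrsr1 was -21.3 points as a mean over CpGs and -0.94 points with pooled reads. The higher shores were at Igdcc4, at H1f0, a linker histone, at Noc2l, a repressor of histone acetylation, and at the imprinted Gnas locus, by 25.5, 22.4, 22.0 and 20.1 points, and Gnas was 11.8 points higher with pooled reads. The smallest limma adjusted p of these 8 shores was 0.743.

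Shores of 7 of the 11 genes that the study names at other features had enough CpGs, and most stood at an end of the scale without a gap between genotypes. The Aurkb shore, over coding exons of this mitotic kinase gene, was at 97.2% and 98.7% in WT, 98.1% and 98.1% in hSTAT5B, and 98.7% and 95.3% in hSTAT5B N642H. The Top2a shore, near the start of topoisomerase II alpha, was at 0% in every library but WT replicate 2, where it was 1.67%. Mcm2, a subunit of the replicative helicase, stayed between 1.71% and 5.34%, and the 3 shores of Ccnd2, cyclin D2, between 0% and 4.71%. The gene-side shore of Cdkn2a, which encodes inhibitors of the cell cycle, was at 28.9% and 30.9% in WT, 30.6% and 22.3% in hSTAT5B, and 42.0% and 32.3% in hSTAT5B N642H, a difference of 7.23 points from WT (limma, adjusted p = 0.743). At the far side of the Aurka island, 3 CpGs in an intron of Cstf1 were at 97.8% and 99.2%, 100% and 98.9%, and 97.2% and 87.5%. The last value rests on 1 CpG at 62.5% over 16 reads, which was at 100% in all other libraries.

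Shores of 10 gene lists were counted, and in none did limma call a shore. The single shores named from these lists below are examples that no rule set, and they do not stand for their list. The median change from WT to hSTAT5B N642H over all 7937 shores was 0.176 points, and the shares of shores 5 points or more higher and lower, 11.9% and 8.74%, are those against which the counts of each list stand. The developmental transcription factors, which in T cells are silent and often lie in large islands, had 250 shores of 110 of the 132 genes, of which 25 (10%) were 5 points or more higher and 18 (7.2%) lower, both under the shares of all shores, with a median change of 0.768 points. Neurog3, a factor of endocrine cell fate, had 8.67% and 12.2% in WT, 23.2% and 14.5% in hSTAT5B, and 27.4% and 24.8% in hSTAT5B N642H, and Lhx5 had 8.47% and 7.11%, 12.5% and 3.77%, and 22.2% and 19.6%. At both genes the hSTAT5B N642H libraries were the highest of the 6. They were the highest at 19 of the 250 shores and the lowest at 16.

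Genes of DNA methylation and Polycomb had 30 shores of 15 of 29 genes, 1 (3.33%) higher and 6 (20%) lower by 5 points or more, with a median of -0.254 points. The gene-side shore of Dnmt1, the maintenance methyltransferase, stood at 14.8% and 15.9% in WT, 12.3% and 12.1% in hSTAT5B, and 4.64% and 10.9% in hSTAT5B N642H. Mbd1, a reader of methylated CpGs, had 38.8% and 40.9%, 39.8% and 38.7%, and 27.4% and 24.0%, and the upstream shore of Tet3, which oxidizes methylcytosine, had 10.5% and 8.42%, 3.74% and 12.1%, and 1.59% and 2.59%. All 3 were lowest in the hSTAT5B N642H libraries, which held for 5 of the 30 shores, and at 1 of the 30 these libraries were the highest.
Cell cycle and replication genes had 27 shores of 22 of 41 genes, 2 (7.41%) higher and 4 (14.8%) lower, with a median of 0.175 points. Cdc6, which loads the replicative helicase, had 58.6% and 56.6% in WT, 44.2% and 39.6% in hSTAT5B, and 31.0% and 34.0% in hSTAT5B N642H, in the order WT, hSTAT5B, hSTAT5B N642H without overlap (quasi-binomial model, adjusted p = 0.149).

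T cell identity genes had 24 shores of 11 of 34 genes, 4 (16.7%) higher and 4 (16.7%) lower, with a median of -0.327 points. Besides the Runx1 shore above, 2 others of that gene lay on opposite sides of WT: 1 stood at 77.4% and 90.6% in WT, 89.9% and 90.8% in hSTAT5B, and 96.9% and 98.8% in hSTAT5B N642H, and the upstream 1 at 95.6% and 91.8%, 88.9% and 93.1%, and 79.4% and 84.2%. Thy1, a surface protein of T cells, had shores at 56.2% and 49.2%, 67.1% and 46.0%, and 39.3% and 26.3%, and at 48.2% and 29.8%, 20.5% and 25.5%, and 21.0% and 15.4%. WT replicate 1 is the highest library at the second of these.
Effector and memory genes had 18 shores of 12 of 33 genes, 4 (22.2%) higher and 1 (5.56%) lower, with a median of 0.474 points. At Eomes, a transcription factor of effector and memory CD8+ T cells, the gene-side shore had 37.9% and 36.6% in WT, 34.0% and 28.6% in hSTAT5B, and 19.5% and 12.3% in hSTAT5B N642H (quasi-binomial model, adjusted p = 0.0836), while another shore of the gene had 7.51% and 7.35%, 14.7% and 10.9%, and 17.4% and 15.3%. The pair of Eomes shores thus lay on opposite sides of WT.

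STAT5 and cytokine signaling genes had 20 shores of 13 of 32 genes, 0 higher and 1 (5%) lower by 5 points or more, with a median of -0.824 points. The lower shore was on the gene side of Lif, an IL-6 family cytokine, at 21.6% and 32.9% in WT, 23.5% and 31.8% in hSTAT5B, and 17.4% and 14.9% in hSTAT5B N642H. Pim1, a kinase induced by STAT5, had 0.952% and 1.76%, 1.11% and 3.11%, and 4.04% and 3.61%. Of the lists of other cells, CD4 and helper T cells had 7 shores, B cells 4 and myeloid cells 3, none of them 5 points or more from WT in hSTAT5B N642H. In hSTAT5B 1 B cell shore and 1 myeloid shore were 5 points or more above WT. The medians in hSTAT5B N642H were 2.28, 1.34 and 0.555 points, the first of them the highest of the 10 lists. The 11 shores of the genes that the study names had a median of -0.692 points.

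The core motif of STAT factors, TTCNNNGAA, which reads the same on both strands, occurred in 45.9% of all 31214 shore windows of 2000 bp and in 51.9% of all autosomal windows of that length. CpGs within 100 bp of it (2764 shore CpGs) differed by -0.113 points between hSTAT5B N642H and WT, and the other shore CpGs by 0.345 points. More than 1000 bp from the island the 627 CpGs near the motif stood at 65.6% and 65.6% in WT, 65.4% and 65.7% in hSTAT5B, and 63.8% and 63.9% in hSTAT5B N642H, a difference of -1.74 points from WT, against -0.268 points for the others (exact permutation tests over libraries, p = 0.333 and 0.667). The difference between the 2 sets of CpGs was not tested, and a match to these letters is not a binding site.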

How the data were processed

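RRBS libraries of CD8+ T cells were analysed in 3 genotypes with 2 libraries each. The authors trimmed reads with Trimmomatic, aligned them with BSMAP to GRCm38/mm10 and deposited per CpG the methylated and total read counts, together with a score, the methylation level scaled to 1000. The handling of reads with several matches is not given in the sources used here. From these counts, CpGs with at least 10 and under 1000 reads in all 6 libraries were kept. CGIs were called on soft-masked GRCm38, and levels are unweighted means over CpGs. Genes and starts come from GENCODE. A CpG was called copied when the 32 bases around it occur more than once on the autosomes. Mean levels were compared by exact 2-sided permutation over libraries. Regions with 3 or more CpGs (islands, shores, shelves from there to 4000 bp, and 2000 bp tiles beyond) were fitted with limma 3.58.1 (R 4.3.3) on log2((methylated + 1)/(unmethylated + 1)), with Benjamini-Hochberg adjustment over all regions. The fit was tested on simulated data. Other work used Python 3.11.15, numpy 2.4.6, pandas 2.3.3 and scipy 1.17.1. Shores were named by the nearest protein-coding start: with 5 or more CpGs, the 6 largest falls and 6 largest rises in hSTAT5B N642H outside the other 4 libraries and the 4 of each in hSTAT5B against WT, the shores of the genes the study names, and the 3 steepest each way. The 12 shores with the smallest quasi-binomial adjusted p were added after the values were seen. Single shores named from the gene lists follow none of these rules. The members, rules and gene lists were chosen with earlier results of these data known. The intervals between libraries cover no error beyond these 6 libraries, and reads of a library without molecular identifiers are not independent molecules. A shore that the rule selected is not reported here.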

Additional observations from a re-analysis of the deposited data

How the results depend on the processing

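Of 174 values of 14 comparisons under alternatives, 144 kept their direction and side of the threshold or, for counts of shores, a similar count. Counts could vary within limits, so that 2095 shores without WT replicate 2 were taken as like 1641. The permutation tests between genotypes cannot go below 0.333 or 0.0667, so there only the direction could change. The difference of hSTAT5B N642H from hSTAT5B in mean shore level turned negative with 5 or more reads per CpG (-0.00255 points), pooled reads (-0.214), stricter islands (-0.0238), CpGs inside MspI sites left out (-0.116), and without hSTAT5B replicate 2 or hSTAT5B N642H replicate 2, with values from -0.00959 to 0.0475 points over the 4 fits that leave out a library (-0.000438 without hSTAT5B replicate 2). Shores minus far CpGs from WT to hSTAT5B turned to -0.0180 points with MspI sites left out and was 0.585 with pooled reads. Leaving out MspI sites or copied CpGs was chosen after seeing the data. The gene side minus the upstream side, -3.33 points, was -1.55 with soft-masked CpGs left out, -0.896 with MspI sites left out, and -3.37 to -3.31 without any 1 library, where the exact test on 5 libraries cannot go below p = 0.0625. In place of 0 shores by limma, the quasi-binomial model called 46 and 10 and Fisher's exact test 1110, 430 and 1002. Shores apart by 10 points numbered 479, 304 and 430 (hSTAT5B N642H and WT, hSTAT5B and WT, hSTAT5B N642H and hSTAT5B), with 5 or more CpGs per shore 653, 476 and 630, with 5 or more reads 2545, 2248 and 2509, and with 20 or more reads 691, 529 and 670. With fewer CpGs or reads allowed, more shores enter. With the replicate number as a block, limma called 0 shores in all 3 comparisons, with 525, 399 and 482 at an unadjusted p under 0.05. Replicate differences correlated between genotypes at 0.001, -0.020 and 0.030, so the numbers do not pair the libraries. Of the 49 named values 40 kept their sign without any 1 library and 43 with pooled reads. Shores chosen because their libraries do not overlap keep their sign without any 1 library by that choice. All values that lost their sign belonged to the genes the study names or to the steepest shores, which were not chosen by a gap between genotypes. With a median of 26 to 47 reads per shore CpG, differences of a few points at single shores are within counting error.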
